A study of Capra hircus with 18 samples.

Results

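The genes described here are those that carry an entry in the deposited annotation column for transcription factor families, in either of the tables of genes that differed between transported and control goats, without FOS, JUN, KLF4, CEBPB, BCL6, ETS2, PRDM1, TSC22D3 and ZFP36. Of the 1557 genes listed in either table, 717 had an entry, 7 of these were among the genes left out by name, and 710 were members. At 30 min 170 members were listed, at 180 min 589 were, and 49 were in both tables. The entries were names of protein domains and not of transcription factor families. They covered 281 domains, among them protein kinase, G protein-coupled receptor, small GTPase and immunoglobulin domains, and the entry of IL1R2, a decoy receptor for interleukin-1, was that of a reverse transcriptase. The column therefore did not single out transcription factors. The members are called annotated genes below, and 77 of them (10.85%), with 28 different entries, are called transcription factors because the domain in the entry binds DNA or is found mainly in DNA-binding proteins, such as the KRAB and SCAN domains of zinc finger proteins, or because the gene description in the table names such a protein. The 3 genes with a KRAB entry at 30 min have neither a name nor a description and were placed by that domain alone. Another 22 were grouped as chromatin proteins or cofactors. A gene name was missing for 138 annotated genes and for 13 of the transcription factors, which are given by their identifiers.

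Whole blood of 18 uncastrated male Spanish goats, 8 months old, was sequenced with 1 library per goat. The 7 control goats stayed in pens, 4 goats were transported for 30 min (about 50 km) and 7 for 180 min (about 200 km), all after a night without feed. Transport was spread over more than 1 day per the study's methods, and the labels do not give the day, so day could not be fitted and its part in the differences was not tested. The same 7 control goats stand in both tables, and each table was normalized on its own. Every goat of both tables was used.

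A transcription factor binds short DNA sequences and raises or lowers transcription of the genes beside them. Basic leucine zipper proteins, such as the C/EBP, AP-1 and Maf families, bind DNA as dimers, and C/EBP proteins are known for their role in the formation of neutrophils and monocytes. Zinc finger proteins with a KRAB or BTB domain are mostly repressors, and ID proteins, which lack the DNA-binding basic region, hold other helix-loop-helix proteins away from DNA. In whole blood a transcript can change because the mix of leukocytes changes, and fewer cells of a type and less RNA per cell cannot be told apart in these samples.

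The tables list only genes that had passed an unadjusted p-value of 0.05 in the authors' own test on these goats. The comparisons below are therefore descriptions of genes already chosen for a difference, not independent evidence of it. A gene is called higher or lower where limma, fitted to all listed genes of a table on log2(normalized count + 1), gave an unadjusted p-value under 0.05. By that rule 21.6% of the 430 genes in the 30 min table were called higher and 24.4% lower, and 36.8% of the 1247 genes in the 180 min table were called higher and 25.6% lower. The library size behind the deposited FPKM ranged from about 10443000 to 39473200 reads, and 180 min goat 10, with the smallest library of its group, placed 26.2% of its reads on the genes of the 180 min table against 4.22% to 14.3% in the other goats.

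Among annotated genes as a whole, the shares called higher or lower lay close to those of all listed genes. At 30 min 44 of 170 annotated genes (25.9%) rose and 40 (23.5%) fell, and at 180 min 223 of 589 (37.9%) rose and 134 (22.8%) fell. The median log2 difference from control was -0.95 at 30 min against -0.92 over all listed genes, and 0.69 at 180 min against 0.68. Of the transcription factors, 3 of 21 rose and 6 fell at 30 min (14.3% and 28.6%), and 21 of 60 rose and 13 fell at 180 min (35.0% and 21.7%). After Benjamini-Hochberg adjustment over all genes of a table, limma called 0 of 21 transcription factors at 30 min and 13 of 60 at 180 min, where it called 2.09% and 23.7% of all listed genes. These splits depended on the scaling. With edgeR and TMM factors taken from the listed genes alone, which moved all differences by a median of 0.36 at 30 min and -0.40 at 180 min on the log2 scale, the transcription factors called higher and lower were 2 and 4 at 30 min and 16 and 26 at 180 min. Under the same scaling 24% of all listed genes were called higher and 21.6% lower at 30 min, and 20.9% and 37.7% at 180 min. For the annotated genes of the 180 min table the TMM counts were 125 higher and 210 lower.

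**Figure D1:**
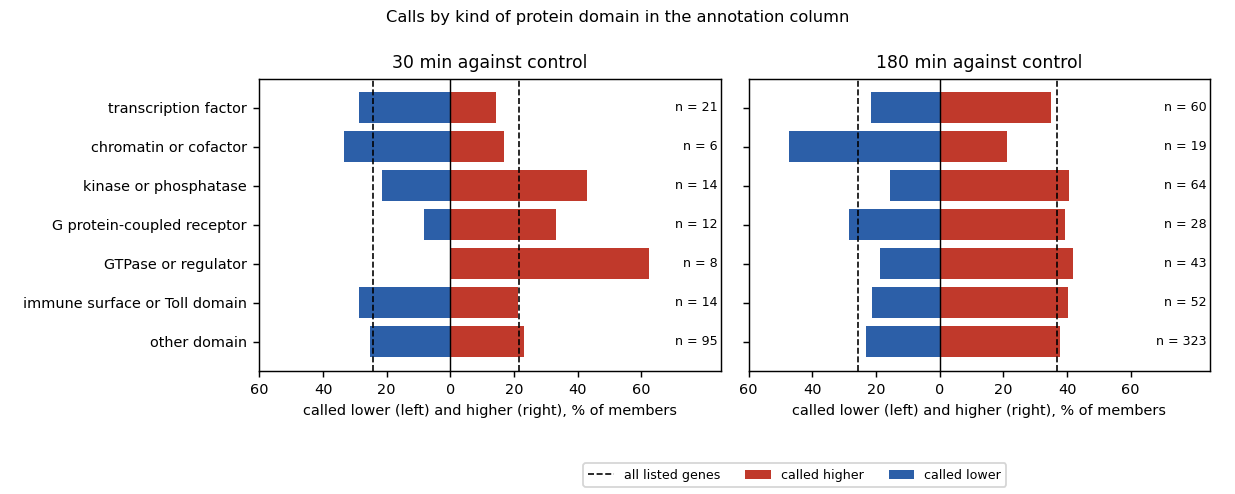
Share of annotated genes called lower (left of 0) and higher (right of 0), in percent, by kind of protein domain, at 30 min and at 180 min, with dashed lines at the shares over all listed genes and the number of genes at the right. At 180 min the bars of most kinds reach close to the dashed lines, and the 19 chromatin proteins and cofactors have 47.4% called lower and 21.1% called higher.

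After 30 min of transport FOSB, MYC and NR2E1 were the transcription factors called higher. FOSB, an AP-1 protein of the immediate early gene group (chromosome 18, 54128257 to 54134780, plus strand, build not given in the sources used here), had normalized counts of 116, 103, 29.6 and 35.2 in goats 21, 22, 24 and 27. In the control goats it ranged from 0 to 34.9 with a median of 17.2, so that goats 21 and 22 stood well above all control goats, goat 27 just above them and goat 24 among them. The log2 difference was 2.25 ± 0.92 (SE), with an exact permutation p = 0.0576 and a limma adjusted p = 0.103. MYC, a helix-loop-helix regulator of growth genes (chromosome 14, 69338893 to 69342782, plus strand), had 2010.3, 1707, 1965 and 1988 normalized counts against 590.1 to 1747 in control goats. All but goat 22 lay above the highest control goat, and the log2 difference was 0.87 ± 0.36 (exact permutation p = 0.0333, limma adjusted p = 0.103). NR2E1, an orphan nuclear receptor best known from neural progenitors (chromosome 9, 29239444 to 29259170, minus strand), had 62.3, 38.3, 162 and 69.3 normalized counts against 0 to 61.1, a log2 difference of 2.30 ± 0.95 (exact permutation p = 0.0303, limma adjusted p = 0.103). All but goat 22 again exceeded every control goat, in goat 21 by little.

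The named transcription factors called lower at 30 min were RARB, BORCS8-MEF2B and SOX13. RARB, a retinoic acid receptor (chromosome 27, 5262988 to 5443719, plus strand), had no read in any of the 4 transported goats, while the control goats ranged from 0 to 63.5 with a median of 4.3. With 3 reads per library as the limit that a count of 0 allows, RARB was at least 5.90-fold lower in transported goats, but control goats 1 and 6 were also at 0, so the groups overlapped (exact permutation p = 0.0758, limma adjusted p = 0.104). Control goat 9 held 51.0% of the normalized counts of the control goats, and without it RARB was at least 3.37-fold lower. BORCS8-MEF2B, a readthrough gene that ends in the MADS box factor MEF2B, had 28.2, 46.3, 7.72 and 28.6 normalized counts against 29.1 to 163, with all but goat 22 below every control goat. Its log2 difference was -1.35 ± 0.56 (exact permutation p = 0.0303, limma adjusted p = 0.103). SOX13, an HMG box factor known from gamma-delta T cells, had 83.0, 55.1, 140.3 and 156 normalized counts against 130.2 to 294, a log2 difference of -0.84 ± 0.37 (exact permutation p = 0.0576, limma adjusted p = 0.104), and goats 24 and 27 lay among the control goats.

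Each of these 6 calls was lost when single goats were left out, in 3 to 8 of the 11 goats. With TMM scaling FOSB, NR2E1 and RARB were called, and MYC, SOX13 and BORCS8-MEF2B were not. The log2 difference of MYC was then 0.88, about as large as before, and those of SOX13 and BORCS8-MEF2B were -0.54 and -0.88. Without goat 21, 0 transcription factors were called higher and 1 lower, and without goat 24, 1 higher and 1 lower. No transcription factor was above the highest control goat in all goats transported for 30 min, and UBTF alone was below the lowest in all. UBTF, the activator of ribosomal RNA gene transcription (chromosome 19, 43661205 to 43672089, minus strand), had 1378, 1444, 1358 and 1401 normalized counts against 1458 to 1992 in control goats. On counts scaled by library size the groups overlapped, at 1663 to 1744 against 1680 to 2309. The difference was small, -0.33 ± 0.20 on the log2 scale, and UBTF was not called by limma (exact permutation p = 0.00606, limma adjusted p = 0.152). Among all 430 listed genes 1.63% had every transported goat below and 6.51% every transported goat above the control goats.

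**Figure D2:**
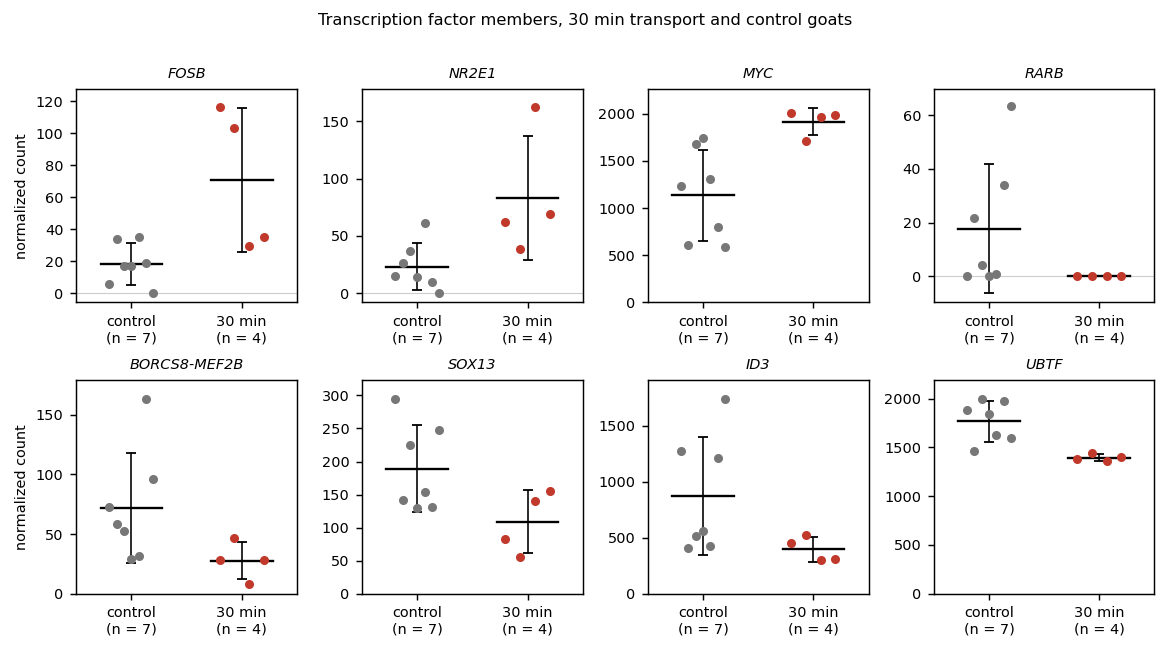
Normalized count of 8 transcription factors in the 7 control goats (grey) and the 4 goats transported for 30 min (red), on linear axes, with the mean (line) and SD (error bar) of each group. MYC is above the highest control goat in all but goat 22, RARB is at 0 in all 4 transported goats and in control goats 1 and 6, and UBTF is below every control goat in all 4.

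At 30 min all 6 genes with a KRAB, SCAN or BTB entry had a lower mean than in control goats, as did 303 of the 430 listed genes (70.5%). The 3 with a KRAB entry, all without a gene name, were called lower, as were 24.4% of all listed genes. By mean normalized count, 51.8% of listed genes at 100 or more had a lower mean, 88.3% at 10 to 100 and 84.1% under 10. At those levels 12.2%, 45.8% and 23% of listed genes were called lower. ENSCHIG00000024440 had 13.3, 34.4, 33.5 and 31.9 normalized counts against 30.1 to 129 (log2 difference -1.11 ± 0.49, exact permutation p = 0.0545), and the other two, ENSCHIG00000002926 and ENSCHIG00000025144, averaged under 10 normalized counts. ZBTB3, ZBTB48 and ZNF18 had log2 differences of -2.06 ± 1.02, -0.75 ± 0.41 and -0.79 ± 0.43 and were not called. With TMM scaling, without goat 21 and without goat 24, 0 of the 6 were called, and all 6 kept a lower mean in each case. TMM scaling called 21.6% of all listed genes lower. KLF4 and PRDM1, zinc finger genes also listed at 30 min, were left out by name and are not among the 6. The lymphoid factors listed at 30 min were ID3 and BATF, neither called. ID3, which blocks E proteins in lymphocytes, had 454, 523, 301 and 306 normalized counts against 407 to 1734 (log2 difference -0.96 ± 0.46, exact permutation p = 0.0576), and BATF, an AP-1 protein of lymphocytes, had 239, 294, 326 and 198 against 197 to 826 (-0.77 ± 0.46, exact permutation p = 0.148). In both genes every transported goat was below the control median. The Ets factors ELK4, SPDEF and ENSCHIG00000017650 and the heat shock factor HSF4 had log2 differences of -1.16 ± 0.77, -1.21 ± 0.99, -0.50 ± 0.24 and -0.99 ± 0.57, none called. MEIS3 and HOXB9 were at 0 reads in all 4 transported goats and at medians of 0.86 and 0 in control goats, and were not called. With TMM scaling SPDEF, MEIS3 and HOXB9 were called lower, as was RARB.

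After 180 min of transport all 7 basic leucine zipper genes among the transcription factors rose, where 36.8% of all listed genes did. They were the AP-1 family members FOSL2 and JDP2, CEBPA and CEBPD of the C/EBP family, and NFE2, MAFG and NRL with a Maf type zipper. Their log2 differences had a median of 1.31, and limma called 4 of the 7 after adjustment. FOS and CEBPB, zipper genes also listed at 180 min, were left out by name and are not among the 7. Of all listed genes with a mean of at least 100 normalized counts 44.6% rose. CEBPD, which drives transcription in acute inflammation (chromosome 14, 62921216 to 62921986, minus strand), had 20822, 20831, 14716, 9821, 22296, 19854 and 16564 normalized counts in goats 10, 11, 13, 14, 15, 16 and 17. The control goats ranged from 2671 to 12706 with a median of 6365, and all transported goats but goat 14 were above them. The means were 17843 ± 4424 (SD, n = 7) and 6443 ± 3372 (SD, n = 7), and the log2 difference was 1.59 ± 0.34 (exact permutation p = 0.00117, limma adjusted p = 0.0291). Measured per gene length, CEBPD was the most abundant of all transcription factors of the table in both groups, with a mean FPKM of 1144 in transported and 409 in control goats.

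JDP2, a repressor of AP-1 (chromosome 10, 16462211 to 16504861, minus strand), had a lowest, median and highest normalized count of 608, 1196 and 2008 in transported goats and of 287, 522 and 679 in control goats. Goat 10, with 608, was the one transported goat not above all control goats. The log2 difference was 1.27 ± 0.30 (exact permutation p = 0.00117, limma adjusted p = 0.0295). FOSL2, a Fos protein that pairs with Jun proteins (chromosome 11, 71076338 to 71094230, minus strand), ranged from 309 to 1962 with a median of 949.5 against 88.5 to 532 with a median of 320.1, a log2 difference of 1.63 ± 0.47 (exact permutation p = 0.00758, limma adjusted p = 0.04). Goats 13 and 17 lay among the control goats for FOSL2. CEBPA, needed to form granulocytes (chromosome 18, 44783262 to 44784323, minus strand), ranged from 427 to 815 with a median of 503 against 187 to 474, a log2 difference of 0.81 ± 0.25 (exact permutation p = 0.00233, limma adjusted p = 0.0421), and goats 10 and 13 lay among the control goats.

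NFE2, a zipper protein of red cell and platelet precursors that is also expressed in granulocytes (chromosome 5, 25508756 to 25516539, plus strand), ranged from 5018 to 31402 with a median of 10058 against 1883 to 9753. The highest value was that of goat 10, and the log2 difference was 1.31 ± 0.50 (exact permutation p = 0.0297, limma adjusted p = 0.0585). MAFG, a small Maf protein that pairs with NFE2, ranged from 62.3 to 266 against 27.5 to 113 (log2 difference 0.96 ± 0.43, exact permutation p = 0.053, limma adjusted p = 0.076), and goats 14, 15 and 16 alone were above all control goats. NRL, known as a photoreceptor factor, was at 3.6 to 72.9 normalized counts against 0 to 14.3, a log2 difference of 1.58 ± 0.68 (exact permutation p = 0.0443, limma adjusted p = 0.0702). Leaving out single goats left 5 to 7 of the 7 zipper genes called, 6 without goat 10. With TMM scaling all 7 kept a higher mean and 4 were called. CEBPA, MAFG and NRL were then at 0.36, 0.65 and 1.27 on the log2 scale.

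**Figure D3:**
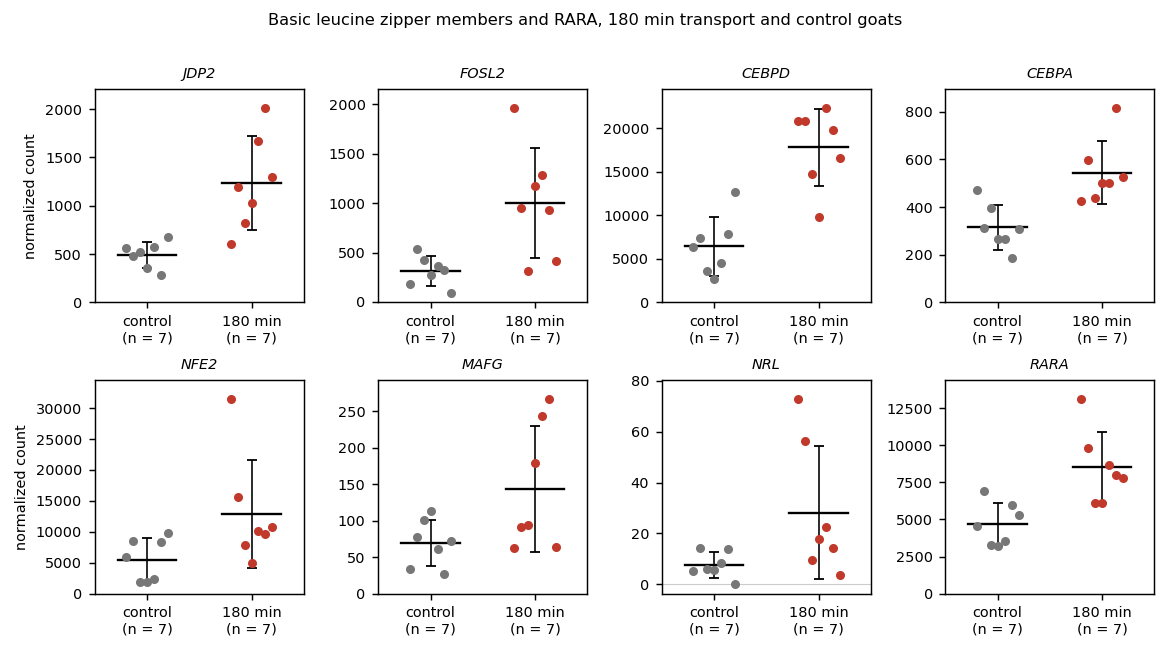
Normalized count of the 7 basic leucine zipper genes and RARA in the 7 control goats (grey) and the 7 goats transported for 180 min (red), on linear axes, with the mean (line) and SD (error bar) of each group. CEBPD and JDP2 are above all control goats in all but goat 14 and goat 10, respectively, and the highest NFE2 value, 31402, is that of goat 10.

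The 3 genes with an E2F and DP entry at 180 min were all called higher, against 36.8% of all listed genes. Of listed genes with a mean of at least 100 normalized counts 44.6% were called higher. TFDP2, the partner that E2F proteins need to bind DNA (chromosome 1, 126343154 to 126547347, plus strand), ranged from 204 to 1114 with a median of 611 against 171 to 385 with a median of 247, a log2 difference of 1.17 ± 0.37 (exact permutation p = 0.0105, limma adjusted p = 0.0465). E2F2, an activator of genes for DNA replication (chromosome 2, 6602848 to 6627118, minus strand), ranged from 1895 to 4289 against 1137 to 2728 (log2 difference 0.77 ± 0.27, exact permutation p = 0.00932, limma adjusted p = 0.0509). In TFDP2 goats 13 and 17, and in E2F2 goats 13, 14 and 17, lay among the control goats. The third, ENSCHIG00000010662, was at 909, 2122 and 1120.4 in goats 14, 15 and 16 and at 175 to 253 in the others, which was within the control range, with a highest value of 295 (log2 difference 1.59 ± 0.64, exact permutation p = 0.0449, limma adjusted p = 0.0638). Leaving out single goats left 2 or 3 of the 3 called, and TMM scaling left 2, with E2F2 at 0.38.

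Nuclear receptors and interferon regulatory factors were mixed in their calls. RARA, the retinoic acid receptor of granulocyte formation (chromosome 19, 40219860 to 40241118, plus strand), had 13083, 9794, 6077, 6131, 8673, 8001 and 7786 normalized counts in goats 10, 11, 13, 14, 15, 16 and 17 against 3213 to 6918 in control goats. Goats 13 and 14 lay within the control range, and the log2 difference was 0.87 ± 0.26 (exact permutation p = 0.00233, limma adjusted p = 0.0411). ENSCHIG00000024110, with a hormone receptor entry and no gene name, was at 330.0 to 1361 against 232 to 391 and exceeded every control goat in all goats but goat 17 (log2 difference 1.05 ± 0.30, exact permutation p = 0.00291, limma adjusted p = 0.0406). NR1H3, the oxysterol receptor LXR alpha, was at 3661 and 2540.3 in goats 10 and 11 and at 184 to 990.0 in the other five, against 224 to 586 in control goats, and was not called (log2 difference 0.99 ± 0.63, exact permutation p = 0.18).

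IRF3, which acts downstream of sensors of foreign nucleic acid, rose, with 3017 to 14496 normalized counts against 1337 to 6199, a log2 difference of 1.05 ± 0.42 (exact permutation p = 0.0262, limma adjusted p = 0.0618). Goats 10 and 11, at 14496 and 9297, were the ones above all control goats, and with TMM scaling IRF3 was at 0.63 and not called. IRF9, the DNA-binding part of the type I interferon signal, ranged from 5636 to 30135 against 2721 to 10819, with every transported goat above the control median, and was not called (log2 difference 0.91 ± 0.44, exact permutation p = 0.0629). Of the helix-loop-helix genes, TFE3, which drives lysosome genes, rose from a median of 1571 in control goats to 2407 (log2 difference 0.55 ± 0.21, exact permutation p = 0.00175, limma adjusted p = 0.0571), with goats 13 and 17 among the control goats. With TMM scaling the TFE3 difference was 0.13. MLXIP, a glucose-responsive factor, was at 2866, 2922 and 3210.2 in goats 14, 15 and 16 and at 601 to 1082 in the others, against 341 to 1277, and was not called (0.90 ± 0.48, exact permutation p = 0.0921).

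**Figure D4:**
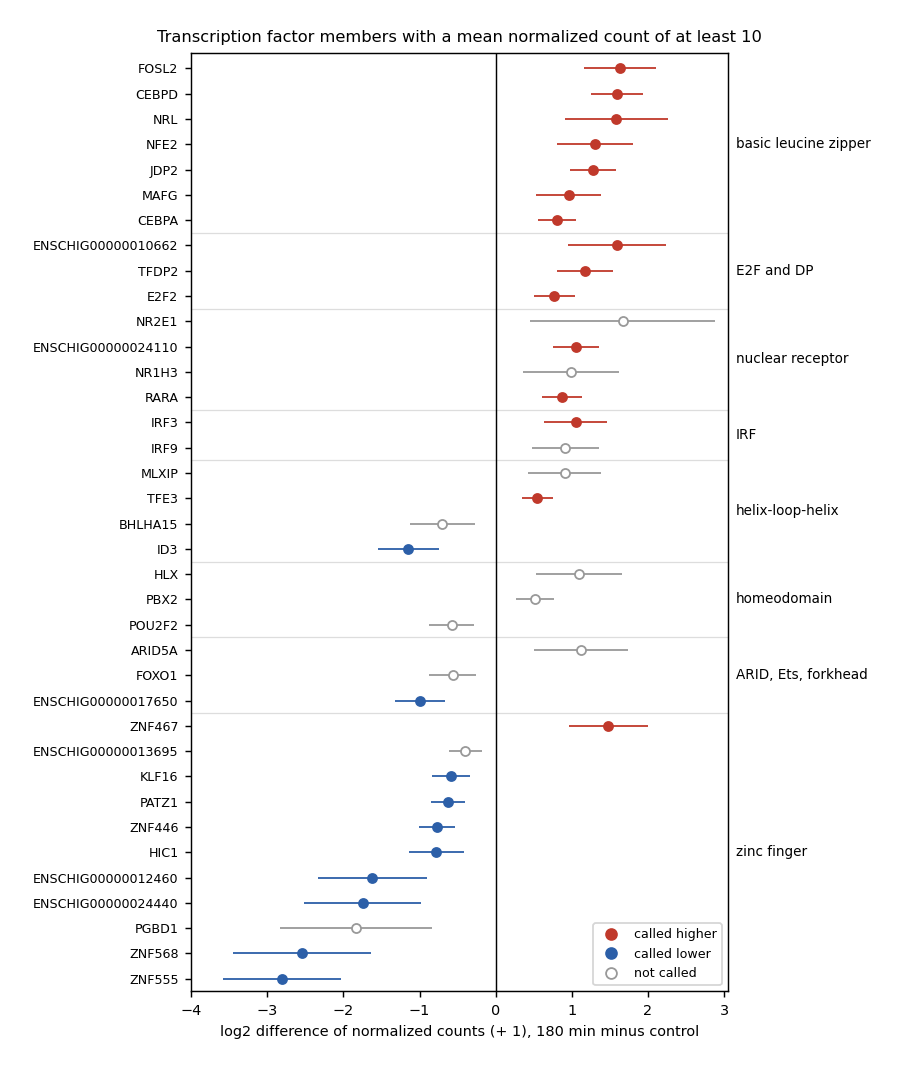
Log2 difference of normalized counts (+ 1), 180 min minus control, of the transcription factors that averaged 10 or more normalized counts, grouped by domain, with points for the estimate and horizontal bars for the SE (7 goats per group). The 7 basic leucine zipper and the 3 E2F and DP genes lie right of 0, and all zinc finger genes shown but ZNF467 lie left of it. Genes left out by name, such as FOS, CEBPB, KLF4 and PRDM1, are not shown.

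Of 13 genes with a zinc finger, KRAB, SCAN or BTB entry at 180 min, 11 had a lower mean and 8 fell, against 1, ZNF467, that rose. The zinc finger genes KLF4, PRDM1 and BCL6 were left out by name and are not among the 13, although KLF4 and PRDM1 were listed at 180 min. The paper names BCL6 among upregulated genes at 180 min, so the split holds for the genes kept by the rule only. Of all listed genes 40.6% had a lower mean and 25.6% fell, and of those with a mean of 10 to 100 normalized counts 60.3% had a lower mean and 43.2% fell. ZNF446, a SCAN domain protein (chromosome 18, 67151314 to 67154243, plus strand), had 123, 166, 148, 125, 88.5, 130.4 and 146 normalized counts in goats 10, 11, 13, 14, 15, 16 and 17 and 159 to 336 in control goats. Only goat 11 reached the control range, and the log2 difference was -0.77 ± 0.23 (exact permutation p = 0.00117, limma adjusted p = 0.0411). PATZ1, a BTB zinc finger protein of lymphocyte development (chromosome 17, 1181480 to 1202119, plus strand), ranged from 185 to 426 against 327 to 499.9, with only goat 17 in the control range (log2 difference -0.63 ± 0.23, exact permutation p = 0.00408, limma adjusted p = 0.054).

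ZNF555 (chromosome 7, 89708611 to 89719051, plus strand) and ZNF568 (chromosome 18, 48041681 to 48060191, minus strand), both with a KRAB entry, had the widest differences of the group. ZNF555 was at 0 in goats 10 and 11 and at 6.0 to 20.5 in the others against 9.82 to 99.6 in control goats, and its log2 difference was -2.81 ± 0.77 (exact permutation p = 0.0035, limma adjusted p = 0.0359). ZNF568 was at 0 in goats 10 and 11 as well and at 7.18 to 44.3 in the others against 20.3 to 180.2 (log2 difference -2.54 ± 0.91, exact permutation p = 0.0163, limma adjusted p = 0.0526). KLF16 and HIC1, both zinc finger repressors, fell by 0.58 and 0.78 on the log2 scale (exact permutation p = 0.0169 and 0.0449), and the call of each was lost when single goats were left out. ZNF467 ranged from 287 to 2369.7 against 81.3 to 406, the highest value again in goat 10 (log2 difference 1.48 ± 0.52, exact permutation p = 0.00991, limma adjusted p = 0.0508). Leaving out single goats left 5 to 7 of the 13 called lower, scaling by effective library sizes left 6, TMM scaling gave 10, and 11 of 13 had a lower mean in each of these settings.

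ID3 and an unnamed Ets gene, both on the lower side at 30 min, fell at 180 min. ID3 (chromosome 2, 6649068 to 6652033, minus strand) had 251, 434, 592, 329.9, 202, 319 and 765 normalized counts in goats 10, 11, 13, 14, 15, 16 and 17 and 427 to 1831 in control goats, so that goats 10, 14, 15 and 16 were below all control goats. The log2 difference was -1.15 ± 0.40 (exact permutation p = 0.0163, limma adjusted p = 0.05). ENSCHIG00000017650, with an Ets entry, ranged from 769 to 3182 against 2341 to 4038, with all but goats 13 and 17 below the control goats (log2 difference -0.99 ± 0.32, exact permutation p = 0.00466, limma adjusted p = 0.047). FOXO1, a forkhead factor of lymphocyte quiescence, and POU2F2, a B cell factor, were lower on average and not called, at -0.57 ± 0.31 (exact permutation p = 0.0711) and -0.58 ± 0.29 (exact permutation p = 0.046).

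**Figure D5:**
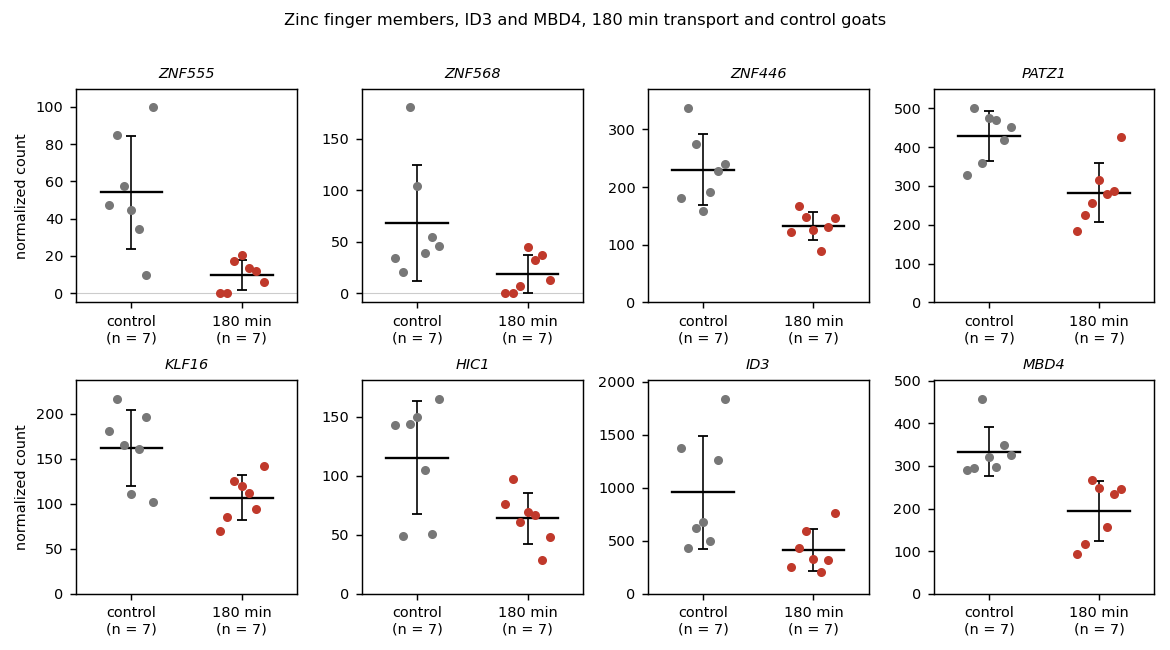
Normalized count of 6 zinc finger genes, ID3 and MBD4 in the 7 control goats (grey) and the 7 goats transported for 180 min (red), on linear axes, with the mean (line) and SD (error bar) of each group. ZNF446 and PATZ1 are below all control goats in all but goat 11 and goat 17, respectively, and MBD4 is below them in all 7 transported goats.

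Of the 28 transcription factors at 180 min with a mean of at least 100 normalized counts over all 14 goats, 20 had a higher mean in transported goats, 14 rose and 5 fell. Of all 749 listed genes at that level 72.0% had a higher mean, 334 rose (44.6%) and 150 fell. With TMM scaling 10 of the 28 factors were called higher and 8 lower, and 183 and 208 of the 749 genes. Of the 9 factors with a mean of 10 to 100, 7 had a lower mean, 5 fell and 1 rose, and of all 257 listed genes at that level 60.3% had a lower mean, 43.2% fell and 25.3% rose. The remaining 23 averaged under 10 normalized counts, and 6 of these rose and 3 fell, where 24.9% and 24.1% of all 241 such genes did so. In 16 of these 23 a single goat held more than 50% of all normalized counts, which was goat 10 in 8 of them. By entry 9 of the 23 were homeodomain and 4 were forkhead genes. VAX1 and TLX2, both homeodomain proteins of embryonic tissues, and SOX17, an endoderm factor, had 72.9, 33.8 and 72.9 normalized counts as their highest values in transported goats, each in goat 10, against 3.09, 1.7 and 4.53 as their highest in control goats. HOXC9, a posterior Hox protein, was at 2.76 to 67.6 against 0 to 6.8, with a log2 difference of 2.52 ± 0.68 (exact permutation p = 0.00524, limma adjusted p = 0.0353), and was not called with TMM scaling. Of the 12 homeodomain entries 4 rose and 0 fell, against 36.8% and 25.6% of all listed genes, and without goat 10 it was 2 and 0. These counts differed between fits, with 3 higher and 5 lower under TMM scaling and 7 higher and 5 lower by edgeR and by DESeq2 with the deposited size factors, which called 52.0% and 58.3% of all listed genes higher and 29.7% and 38.9% lower. IRX4 and PRRX1 had no read in any transported goat and a control median of 0, and against the same limit of 3 reads per library they were at least 6.09-fold and 2.28-fold lower in transported goats. In both genes 4 control goats were also at 0, and without the highest control goat (goat 8 for IRX4 and goat 3 for PRRX1) these limits were 2.34-fold and 1.01-fold.

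The goats transported for 180 min did not share one order among the transcription factors. Of the 22 with a higher mean in transported goats and at least 10 normalized counts, goat 10 was the highest of its group in 13. Goats 10 and 11 were the highest pair in 10 genes, namely RARA, ZNF467, NR1H3, NRL, IRF3, NFE2, ARID5A, HLX, PBX2 and IRF9. Goats 14, 15 and 16 were the highest 3 in 4 genes, which were ENSCHIG00000010662, NR2E1, MLXIP and MAFG. ARID5A, which stabilises inflammatory mRNAs, was at 27439.7 and 12733 in goats 10 and 11 and at 1910.2 to 4252 in the others, against 928 to 6516 in control goats, and was not called (log2 difference 1.12 ± 0.62, exact permutation p = 0.114). HLX, a homeodomain factor of blood cells, was at 5314 and 2904 in goats 10 and 11 and at 587 to 1265 in the others against 272 to 1306 (1.10 ± 0.57, exact permutation p = 0.0857). Without goat 10, 19 transcription factors were called higher and 11 lower.

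The lists of transcription factors for blood lineages and signals were written with earlier results of these data known, so their counts are descriptions only. Of 34 myeloid factors 7 were listed at 180 min, all with a higher mean. Of these 6 rose (FOSL2, JDP2, CEBPA, CEBPD, NFE2 and RARA, but not ARID5A). That compares with 36.8% of all listed genes, and 44.6% of those with a mean of at least 100 normalized counts. All of the 6 but RARA are also among the basic leucine zipper genes described above. With TMM scaling 5 of the 7 were called higher, against 20.9% of all listed genes. At 30 min FOSB was the 1 factor of this list present. These lists leave out the genes excluded by name in the rule, among them CEBPB, FOS, KLF4 and ETS2, which stand in both tables. Of 39 lymphoid factors, ID3 and BATF were listed at 30 min and ID3 and FOXO1 at 180 min, all with a lower mean, and ID3 at 180 min was the 1 called. Of 12 factors of the NF-kB and interferon signals, IRF9 was listed at 180 min and none at 30 min, and IRF3, described above, is not on that list. Of 17 factors of the glucocorticoid response and the clock, PER1 was listed at 180 min (log2 difference 1.40), and it had no entry in the annotation column. Of 10 hypoxia and heat factors HSF4 was listed, at 30 min. Developmental factors, taken by name (HOX, PAX, SOX, TBX and most forkhead genes among them) and therefore without a list size, numbered 2 at 30 min, of which SOX13 fell, and 7 at 180 min. These 7 all had a mean under 10 normalized counts, and 4 rose and 1 fell, where 24.9% and 24.1% of all listed genes at that level did so.

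Markers of leukocytes moved in the same tables. At 180 min 9 of 21 neutrophil markers were listed, all higher and 8 called, and their summed normalized count was 20660 to 86739 in control goats and 68503 to 226014 in transported goats, highest in goat 10. Of 19 T cell markers 8 were listed, all lower and 7 called, with sums of 8725 to 17051 in control and 4641 to 9827 in transported goats. Of 9 monocyte markers 3 were listed and rose, with sums of 3052 to 10453 and 9216 to 31348, highest in goat 15. Of 15 B cell markers MS4A1 was listed at 180 min and fell, from 3759 to 5196 in control goats to 1635 to 4769. Of 10 NK cell markers NKG7 was listed at 180 min and rose (1053 to 2252 against 1992 to 3305), of 7 eosinophil markers ADORA3 was listed and fell (211 to 1451 against 73.9 to 594), and of 7 platelet markers GP1BB was listed and not called (157 to 3269 against 504 to 20030). The highest GP1BB value was that of goat 10, which was also highest in NFE2, and the other transported goats were at no more than 3032. At 30 min 2 of 21 neutrophil markers were listed and rose (1466 to 6805 against 5399 to 9925), 6 of 15 B cell markers were listed, all lower and 1 called (9103 to 28976 against 8692 to 12195), and 0 of 19 T cell markers were listed. Of the NK cell markers NCR3 was listed at 30 min, lower and not called (185 to 684 against 161 to 196). No listed marker was at 0 in all goats of a group, and markers missing from a table have no value here. The part of these markers in the differences of the transcription factors was not tested.

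Of 19 chromatin proteins and cofactors at 180 min 9 fell (47.4%, against 25.6% of all listed genes) and 4 rose (21.1%, against 36.8%). Without the 6 histone entries, 5 of 13 fell (38.5%) and 4 rose (30.8%). MBD4, a glycosylase that repairs mismatches at methylated CpG sites (chromosome 22, 56285965 to 56297912, plus strand), was below every control goat in all goats of both transported groups on normalized counts. It had 178, 134, 164 and 249.5 normalized counts after 30 min against 252 to 381 (log2 difference -0.74 ± 0.24, exact permutation p = 0.00303, limma adjusted p = 0.098). After 180 min it had 94.3, 117, 268, 247, 157, 234 and 247 against 291 to 456 (log2 difference -0.85 ± 0.28, exact permutation p = 0.000583, limma adjusted p = 0.047). These are the smallest p-values that the splits of the goats can give at 30 min and 180 min. On counts scaled by library size the groups overlapped, since 30 min goat 27 (298) and 180 min goat 13 (313) were above control goat 7 (294), and the exact permutation p was 0.00606 at 30 min and 0.00117 at 180 min. With TMM scaling the MBD4 difference at 30 min was -0.44 and was not called.

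LMO2, a LIM cofactor of blood stem cell factors, fell from 1125 to 2039 normalized counts in control goats to 588 to 1318 (log2 difference -0.73 ± 0.24, exact permutation p = 0.00408, limma adjusted p = 0.048). HDAC4, a class II histone deacetylase, rose, at 349 to 1646 against 365 to 681, although goats 13 and 17 were not above the control goats (0.91 ± 0.37, exact permutation p = 0.0309). With TMM scaling HDAC4 was at 0.61 and not called. The elongation factors SUPT6H and SUPT5H and the histone acetyltransferase KAT8 rose by 0.68 ± 0.28, 0.53 ± 0.24 and 0.51 ± 0.24 on the log2 scale, and by 0.25, 0.06 and 0.09 with TMM scaling, where none was called. The 6 genes with a histone entry, none of them named, were lower on average and 4 fell, where 25.6% of all listed genes fell. Leaving out single goats left 3 to 6 of the 6 called lower. TMM scaling called all 6, and 37.7% of all listed genes, lower. Histone genes are near-identical copies whose reads the counting could have divided, so these values are uncertain. At 30 min NFKBIA, the inhibitor that holds NF-kB in the cytoplasm, was the 1 cofactor called higher, with 3406, 1774, 2639 and 1959 normalized counts against 437 to 863 (log2 difference 1.68 ± 0.28, exact permutation p = 0.00303, limma adjusted p = 0.0209). RAD54L, a DNA repair translocase, fell by 0.80 on the log2 scale, with goats 21, 22 and 24 below all control goats (exact permutation p = 0.0121). With TMM scaling RAD54L was at -0.48 and not called.

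At 30 min 11 of the 170 annotated genes lay above every control goat in all 4 transported goats and 3 lay below, where 6.51% and 1.63% of all 430 listed genes did so. On counts scaled by library size 13 lay above and 0 below, against 7.44% and 0.93% of all listed genes. SOCS1, an inhibitor of cytokine receptors, was at 271, 394 and 628 (lowest, median, highest) against 33.5, 84.3 and 114 (log2 difference 2.56 ± 0.41, limma adjusted p = 0.0209). CXCR4, the chemokine receptor that retains leukocytes in bone marrow, was at 3249, 3324 and 3708 against 983, 1513 and 1992 (1.19 ± 0.26, limma adjusted p = 0.043). RAB3D, a GTPase of secretory vesicles, and TRIM45 rose by 1.51 ± 0.34 and 2.51 ± 0.55 (limma adjusted p = 0.043 for each), with TRIM45 at no more than 15.4 normalized counts in any goat. SGK1, a kinase induced by glucocorticoids, rose by 1.34 ± 0.34 (limma adjusted p = 0.0757). The other named genes above all control goats were RALB, CRISPLD2, TINAGL1 and RIDA, with log2 differences of 0.88, 0.73, 1.08 and 1.11. By kind of domain, against 21.6% higher and 24.4% lower over all listed genes, 5 of 8 GTPases or their regulators rose and none fell, and 6 of 14 kinases, phosphatases or SH2 proteins rose, among them DUSP1 (1.13 ± 0.34) and SOCS3 (0.77), and 3 fell, the kinases WNK4 (-1.64 ± 0.51), GRK4 (-1.46 ± 0.49) and PLK1 (-0.86). With TMM scaling WNK4 was called, at -1.20, and GRK4 (-0.80) and PLK1 (-0.48) were not.

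At 180 min 15 annotated genes lay above every control goat in all 7 transported goats and 5 below, where 1.84% and 1.2% of all 1247 listed genes did so. On counts scaled by library size 19 lay above and 5 below, of which 14 and 3 were the same genes, and 2.49% and 0.882% of all listed genes did so. IL1R2, the decoy receptor for interleukin-1, was at 279.5, 1819 and 8701 (lowest, median, highest) against 30.9, 82.5 and 239.8 (log2 difference 4.57 ± 0.69, limma adjusted p = 0.00342). CLEC4E, a lectin receptor of neutrophils and macrophages, was at 399, 994 and 2085 against 31.9, 137 and 222 (3.29 ± 0.50, limma adjusted p = 0.00342). The anion transporters SLC26A8 and SLC26A6 rose by 3.46 ± 0.53 and 2.72 ± 0.50, CCKBR, a receptor for gastrin and cholecystokinin, by 1.97 ± 0.33, and NLRP1, an inflammasome sensor, by 1.13 ± 0.25. The 5 below were LCK, the T cell receptor kinase (1083 to 1709 against 1752 to 2897, log2 difference -0.73 ± 0.21, limma adjusted p = 0.04), TNFRSF25, a death receptor of T cells (224 to 622 against 723 to 1025, -1.05 ± 0.25), PTGR1, INHBB and MBD4. Among 64 kinases, phosphatases or SH2 proteins 26 rose and 10 fell (40.6% and 15.6%, against 36.8% and 25.6% of all listed genes). Among those named with a mean of at least 10 normalized counts, the largest rises were those of DUSP16 (2.39), ACVR1B (1.60) and CAMKK1 (1.58), and the largest falls those of ULK4 (-2.41), INSRR (-2.05) and CAMK1 (-1.47). Of 28 G protein-coupled receptors 11 rose and 8 fell (39.3% and 28.6%), shares near those of all listed genes. By the same rule the largest rises were those of PTGFR (3.13), ADGRE1 (2.02) and CCKBR (1.97), and the largest falls those of GPR179 (-2.74), CXCR6 (-2.22) and CCR6 (-1.85).

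Of the 49 annotated genes in both tables, 27 were higher and 21 lower in both groups, but the tables share their control goats, so this is a description only. INHBA, a subunit of activin, was the 1 gene with opposite differences, -1.001 at 30 min and 1.86 at 180 min. Of these 49 genes 18 were called in both tables, among them MBD4, C5AR1, RAB3D and TLR4, and 40% of all 120 genes in both tables were. The goats of the 2 transported groups were also compared directly, on counts scaled by library size and without the control goats. In this comparison 3 of 49 genes (INHBA, SLC26A8 and TINAGL1) had an unadjusted exact permutation p under 0.05, where 4.17% of all 120 genes in both tables did so. After Benjamini-Hochberg adjustment over those 120 genes 0 passed, and the smallest adjusted exact permutation p of the 49 was 0.485. None of the 4 transcription factors in both tables passed this test. The log2 difference of 180 min minus 30 min was -0.19 for ID3 (exact permutation p = 0.652), -0.66 for NR2E1 (p = 0.755 by the same exact test), -0.49 for ENSCHIG00000017650 (exact permutation p = 0.288) and -0.66 for ENSCHIG00000024440 (exact permutation p = 0.685).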

How the data were processed

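Whole blood RNA of 18 goats was sequenced, 1 library per goat, and groups were taken from the sample labels. Per the study's methods the authors used fastp for read cleaning and HISAT2 for alignment to a goat genome. The build and the counting tool are not given in the sources used here, and the library kit does not mark strand, so overlapping and antisense genes cannot be told apart. The deposited raw counts are whole reads per gene. The signal tested here is the deposited normalized count, that is the raw count over 1 size factor per goat, which the authors set for each table on its own. The deposited FPKM are scaled by gene length and library size by the authors. The deposited p-values of the authors were read only to see how the tables were filtered, and their columns of fold changes, p-values and adjusted p-values were not used otherwise. Unused columns of samples numbered 0.

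The members and the lists were chosen with earlier results of these data known. The entries were sorted into kinds of domain from the domain names after the column was seen, not from expression values, and values of single genes were given mainly for transcription factors. The rule for naming took named members in both tables, those whose groups did not overlap, those of the 30 min table with a mean of at least 10, the 12 highest and 12 lowest by the limma statistic at 180 min, and those on the lists. Other members were named as examples where their domain is described, after their values were seen.

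limma 3.58.1 (lmFit, eBayes, two-sided, R 4.3.3) was fitted to all listed genes of a table on log2(normalized count + 1), and a call was an unadjusted p-value under 0.05, since the tables had already been filtered on an unadjusted p-value. Adjusted p-values are Benjamini-Hochberg over all genes of the table. For single genes an exact permutation test (two-sided) of the mean difference ran over all 330 splits of the goats at 30 min (smallest p 0.00303) and 3432 at 180 min (smallest p 0.000583). The transported groups were compared, for all genes in both tables, on counts scaled by the library size computed from count, FPKM and gene length. The p-values set a difference of group means against the spread between goats, in genes already filtered on the same goats. The limit of 3 reads for a count of 0 covers counting error only, and reads of PCR copies are not independent molecules. Alternatives were pseudocounts of 0.1 and 10, a minimum mean of 10, library sizes in place of size factors, edgeR 4.0.16 with the deposited size factors or TMM, DESeq2 1.42.0, adjusted p-values, the permutation test, FPKM for the direct comparison, and leaving out each goat. The models were also run on simulated counts with a fixed dispersion for all genes and no filter on a p-value. The deposited genes were filtered, so that run does not show how often calls are wrong in these goats. Python 3.11.15 with numpy 2.4.6, pandas 2.3.3 and matplotlib 3.10.9 was used. No sequence is printed because the reference used here holds none.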

Additional observations from a re-analysis of the deposited data

Results flagged for a closer look

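In 89 groups of goats, those of the named transcription factors with a mean of at least 10 normalized counts, the gap of the highest or lowest goat to its neighbour was compared with Dixon's limit. In 5 of these 89 groups 1 goat stood apart, close to the share of about 1 in 20 groups that chance gives. In each of the 5 groups that goat was the lowest, and in 2 of them it was control goat 9. HSF4 was at 14.2 normalized counts in 30 min goat 24 and at 28.0 to 31.5 in the other goats of that group. MYC was at 1707 in 30 min goat 22 and at 1965 to 2010.3 in the others. NRL was at 0 in control goat 9 of the 180 min table and at 5.26 to 14.3 in the others, and PGBD1, a SCAN domain gene, was at 0 in the same goat and at 24.9 to 94.3 in the others. NR2E1 was at 0 in 180 min goat 10 and at 26.4 to 323 in the others.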

How the results depend on the processing

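No paired analysis was possible because the goats of the groups carry different numbers, which mark different animals. Under Benjamini-Hochberg adjustment the annotated genes called higher and lower fell to 5 and 0 at 30 min and to 104 and 44 at 180 min, and the transcription factors to 0 and 0 and to 8 and 5. DESeq2 gave 104 annotated genes lower at 30 min and 358 higher and 216 lower at 180 min, and 14 transcription factors lower at 30 min and 25 at 180 min. Of all listed genes DESeq2 called 62.6% lower at 30 min, and 58.3% higher and 38.9% lower at 180 min. edgeR with the deposited size factors gave 71 annotated genes lower at 30 min, 12 transcription factors lower at 30 min, and 32 higher and 21 lower at 180 min. That fit called 44.9% of all listed genes lower at 30 min, and 52.0% higher and 29.7% lower at 180 min. With TMM 125 annotated genes were higher and 210 lower at 180 min, and 26 transcription factors lower, where 20.9% of all listed genes were higher and 37.7% lower. With a pseudocount of 0.1, 1 transcription factor was called higher at 30 min, and by the permutation test 3 were called lower. Leaving out single goats gave 26 to 40 annotated genes higher and 21 to 53 lower at 30 min, 178 to 233 higher and 100 to 142 lower at 180 min, 0 to 3 transcription factors higher and 1 to 7 lower at 30 min, and 16 to 22 higher and 9 to 16 lower at 180 min. The difference of NR2E1 between 180 min and 30 min was -0.66 and lay between -1.09 and 0.30 when single goats were left out, with 0.30 without 180 min goat 10. Of the named transcription factors with a mean of at least 10 normalized counts, 20 were called at 180 min and 6 at 30 min. Of the 20, 15 kept the call with both pseudocounts, library sizes, edgeR and DESeq2 with the deposited size factors and each goat left out. Of the 6 none did. TMM and the adjustment were not among these settings: with TMM CEBPA, E2F2 and TFE3 of the 15 were not called. The cause of these changes was not tested.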
